A study of Homo sapiens with 24 samples.

Results

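The genes described here are those of the mitochondrial chromosome, taken as every row of the count table whose chromosome was given as MT. Of 48162 genes, 13 lay there, and all 13 were protein-coding. The table held 0 rows of mitochondrial rRNA genes and 0 of mitochondrial tRNA genes, so the 2 rRNAs and 22 tRNAs of the chromosome are not analysed here. RNA was measured in PPC1, an established prostate cancer cell line, in 4 conditions of 6 libraries each. UT were parental cells that received neither radiation nor drug, and were harvested on day 5. UT_LCL were parental cells exposed on day 5 to 5 µM LCL521, a pro-drug that inhibits the lysosomal enzyme acid ceramidase (ASAH1), for 5 h. The study's methods give day 3 for this exposure, and the days printed here are those of the labels. PGCC (polyploid giant cancer cells) received a dose of 8 Gy, given on day 2, and the cells that a 20 micron strainer retained were taken on day 5. PGCC_LCL were irradiated and strained in the same way and also exposed to 5 µM LCL521. All 4 conditions were harvested in parallel in each of 6 independent experiments. The replicate numbers were taken to follow these experiments, which is not settled. Only the PGCC conditions were strained, so radiation, size selection and polyploidy cannot be told apart in these libraries.

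Human mitochondrial DNA is a small circle present in many copies per cell, and its protein genes all encode subunits of the respiratory chain or of ATP synthase. Both strands are transcribed as long precursors from promoters in one non-coding region. The tRNAs punctuate the precursors and are cut out, which frees the mRNAs, and most of the mRNAs then receive a short poly(A) tail. The other subunits of the same complexes, and all proteins that copy, transcribe and process mitochondrial DNA, are encoded in the nucleus.

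Of the 13 genes, 7 encode subunits of complex I, the NADH dehydrogenase: MT-ND1, MT-ND2, MT-ND3, MT-ND4L, MT-ND4, MT-ND5 and MT-ND6. MT-CYB encodes cytochrome b of complex III. MT-CO1, MT-CO2 and MT-CO3 encode the core of complex IV, the cytochrome c oxidase. MT-ATP6 and MT-ATP8 encode subunits of complex V, the ATP synthase. In the file's coordinates, whose build the submitters' processing notes give as hg19, they ran from MT-ND1 at 3307-4262 to MT-CYB at 14747-15887. MT-ND6, at 14149-14673, was the one gene listed on the minus strand. Coordinates, strand and length were the same in GENCODE release 29 for all 13, and the sequences below were taken from its transcripts.

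The ends of these mRNAs show how the compact genome depends on the poly(A) tail, which matters for libraries made from polyadenylated RNA. In 6 of the 13 the coding sequence stops in mid-codon, and the tail supplies the missing bases of the stop codon. The other 7 carry a whole stop codon of the mitochondrial code. The last 15 bases of the 6, with the start of the unfinished stop codon in capitals, are these.
MT-ND1: tccccctcaaaccTA
MT-ND2: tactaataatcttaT
MT-CO3: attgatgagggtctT
MT-ND3: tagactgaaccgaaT
MT-ND4: ccgggttttcctctT
MT-CYB: tactcaaatgggccT
The whole stop codon was AGA in MT-CO1 and AGG in MT-ND6, which are stop codons in mitochondria and not in the cytosol.

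Mitochondrial mRNA was abundant and varied widely between libraries. Total counts were between 14835246 and 19906601 per library, and counts on the 13 genes between 159531 and 1020164. MT-CO1 was the gene with the most counts in 12 of the 24 libraries. Between 0 and 7 of the first 10 genes of a library were mitochondrial. Intervals from counting are therefore narrow for 12 of the members, and the spread between libraries limits the comparisons. MT-ATP8 was the exception, with 7 to 54 counts per library.

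The share of all counts that fell on the 13 genes was 1.12% to 4.33% in UT, with a median of 2.51%. It was 0.954% to 4.23% in UT_LCL, with a median of 2.57%. In PGCC it was 1.92% to 5.21% and the median was 3.71%. In PGCC_LCL it was 2.23% to 5.33% and the median was 4.01%. Both PGCC conditions had the higher medians, and the ranges of all 4 conditions overlapped. Within a condition the highest library exceeded the lowest by a factor of 3.88 in UT, 4.43 in UT_LCL, 2.71 in PGCC and 2.39 in PGCC_LCL.

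The replicate number went with much of this spread. Replicates 4 and 5 were the highest or second highest in every condition, at 4.33% and 4.24% in UT and at 5.21% and 4.83% in PGCC. Replicate 1 was the lowest in every condition, at 1.12% in UT, 0.954% in UT_LCL, 1.92% in PGCC and 2.23% in PGCC_LCL. Compared within a replicate, PGCC exceeded UT in 5 of 6 pairs, and the ratio of the shares was 0.868 to 2.66 with a median of 1.46. PGCC_LCL exceeded UT_LCL in 6 of 6 pairs, by 1.19 to 2.54 times with a median of 1.62. The pair that went the other way was replicate 6, with 3.31% in UT and 2.87% in PGCC. The differences were small in replicates 4 and 5, where the ratios of PGCC to UT were 1.20 and 1.14, against 1.72, 2.66 and 1.96 in replicates 1, 2 and 3.

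**Figure D1:**
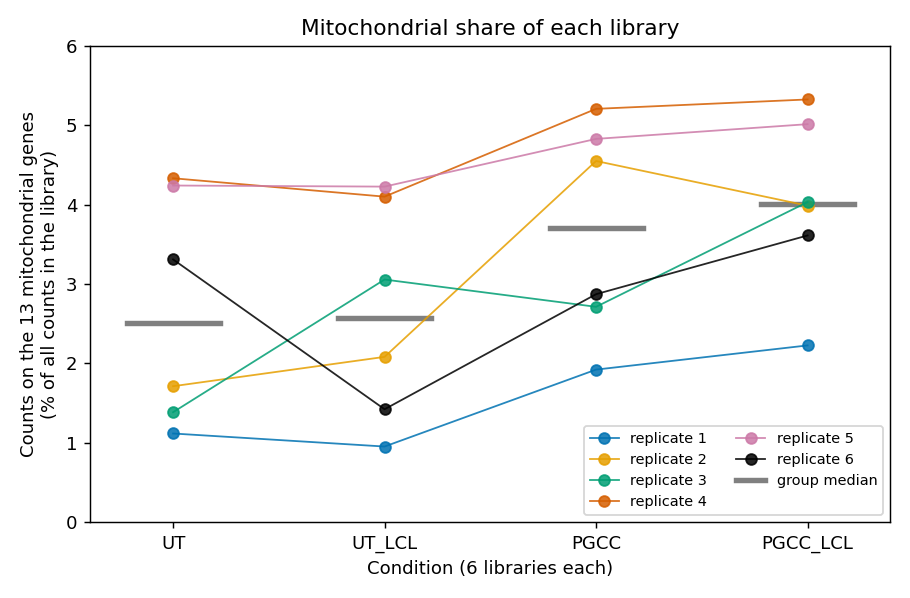
Share of each library's counts on the 13 mitochondrial genes (y axis, %) in the 4 conditions (x axis, 6 libraries each). Each point is 1 library, lines join libraries with the same replicate number and grey bars are group medians. Replicates 4 and 5 are high in every condition, and the medians go from 2.51% in UT to 4.01% in PGCC_LCL.

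A share of counts is relative: more mitochondrial RNA per cell, less of other RNA and a different mix of cells cannot be told apart in bulk RNA. Several values that could accompany the share were measured. Of 9 RNAs that are not polyadenylated, which a poly(A) selection should remove, 5 were found, and their summed level had medians of 182 CPM (counts scaled to library size) in UT, 178 in UT_LCL, 174 in PGCC and 177 in PGCC_LCL, with ranges of 89.4 to 204 in UT and 104 to 185 in PGCC. RN7SL1 made up nearly all of this sum, with means of 168 CPM in UT and 163 CPM in PGCC. The other 4 had higher means in PGCC than in UT, at 0.997 and 0.395 CPM for RPPH1, 0.459 and 0.123 for SNORD3A, 0.408 and 0.224 for SCARNA2, and 0.118 and 0 for SCARNA10. Of the 2 abundant enough to test between UT and PGCC, RPPH1 rose in PGCC by a log2 fold change of 1.32 (adjusted p = 0.0202 by edgeR, the test described with the fold changes). Of 5 epithelial markers all were found, and their sum was 782 to 1033 CPM in UT and 967 to 1480 CPM in PGCC. The keratins KRT19, KRT18 and KRT8 made up nearly all of this sum, with means of 612, 233 and 70.3 CPM in UT and 820, 169 and 178 CPM in PGCC. CDH1, the epithelial cadherin, was low, at 3.07 ± 1.46 CPM in UT and 1.99 ± 0.499 CPM in PGCC (SD, n = 6), and EPCAM was at 0.204 ± 0.127 CPM and 0.448 ± 0.253 CPM. The sum of 5 leukocyte markers was 0.58 to 2.97 CPM in UT and 3.33 to 5.01 CPM in PGCC, against 0.649 to 2.73 in UT_LCL and 3.24 to 4.57 in PGCC_LCL. For 5 fibroblast markers it was 52.4 to 133 CPM in UT and 83.1 to 209 CPM in PGCC (53.1 to 116 in UT_LCL and 81.8 to 192 in PGCC_LCL), and for the 4 endothelial markers found of 5 it was 1.20 to 6.59 CPM in UT and 3.06 to 6.21 CPM in PGCC. None of the leukocyte, fibroblast and endothelial markers found was at 0 in all libraries. COL1A2 made up most of the fibroblast sum, with means of 63.9 CPM in UT and 113 CPM in PGCC. Of those tested between UT and PGCC, PTPRC, COL1A2 and COL3A1 rose in PGCC (log2 fold changes of 1.39, 0.82 and 1.02). The others tested were not called: COL1A1 at -0.23, KDR at 0.69 and TEK at 0.33. The part of these markers in the mitochondrial values was not tested.

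The 13 genes differed in level, although most of their mRNAs come from one precursor. Levels between genes are given as CPM per kilobase of gene length, with TMM scaling (trimmed mean of M-values) over all 24 libraries. In UT the complex IV genes led, with medians of 5574 CPM per kilobase for MT-CO1, 4054 for MT-CO2 and 3823 for MT-CO3. MT-ND3 (2686), MT-ND4 (2278), MT-ATP6 (1900), MT-ND1 (1713) and MT-ND2 (1679) followed. Lower still were MT-CYB (989), MT-ND6 (671), MT-ND5 (586) and MT-ND4L (512), and MT-ATP8 was lowest at 7.02. The ranges of neighbours in this order overlapped, except that the highest MT-ATP8 library (12.3) was below the lowest MT-ND4L library (194). MT-CO1 in its lowest UT library (2406) was also above the highest libraries of MT-CYB (2124), MT-ND6 (941), MT-ND4L (873) and MT-ND5 (822).

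In PGCC the order of the medians was led again by MT-CO1 (7355 CPM per kilobase), MT-CO2 (5212) and MT-CO3 (4406). MT-ND4 (3418), MT-ND3 (3381) and MT-ND1 (3233) came next. MT-ATP6 (2436) and MT-ND2 (2428) lay below MT-ND1 there. MT-ND5 (966) and MT-ND6 (973) had nearly the same median, as the plot of levels per unit length shows.

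**Figure D2:**
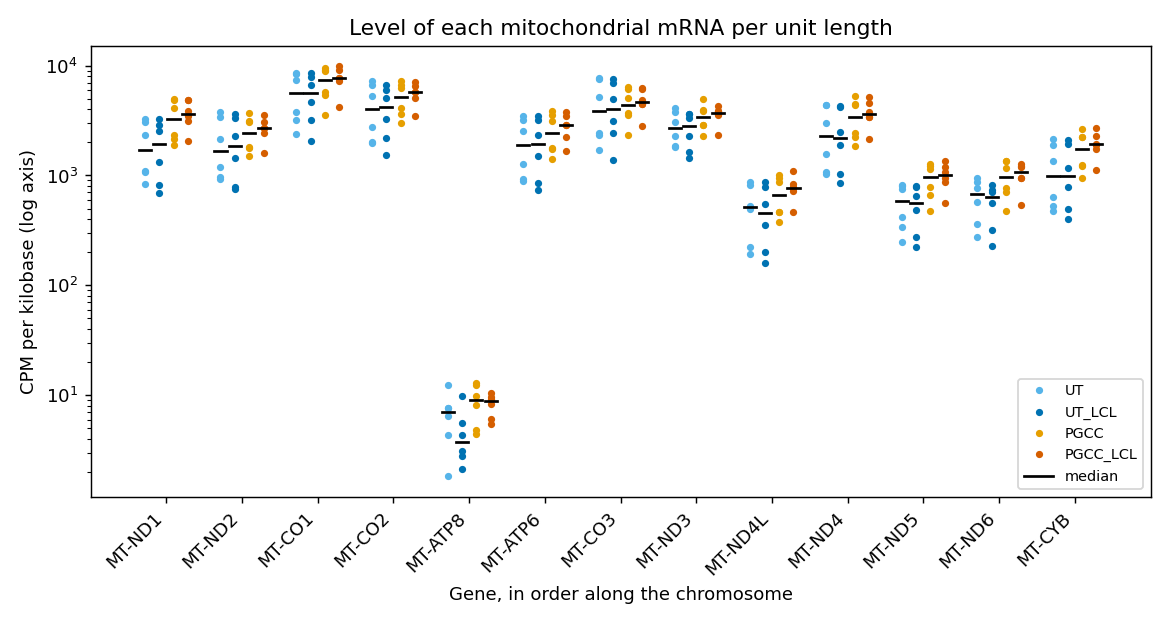
Level of each mitochondrial gene (x axis, in order along the chromosome) as CPM per kilobase (y axis, log scale) in the 24 libraries, coloured by condition, with the condition's median as a black bar. MT-CO1 is highest and MT-ATP8 lies far below the other 12 genes, at a median of 7.02 CPM per kilobase in UT.

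Some of these levels could be set by how reads were assigned. MT-ATP8 and MT-ATP6 share one mRNA, so both should be measured at similar levels per length, but MT-ATP8 reached 0.177% to 0.502% of the MT-ATP6 level per kilobase over the 24 libraries. MT-ATP8 is 207 bases long, and its last 46 bases are also the first 46 of MT-ATP6, which leaves 161 bases of its own. Its sequence, with the shared bases in capitals, follows.
MT-ATP8: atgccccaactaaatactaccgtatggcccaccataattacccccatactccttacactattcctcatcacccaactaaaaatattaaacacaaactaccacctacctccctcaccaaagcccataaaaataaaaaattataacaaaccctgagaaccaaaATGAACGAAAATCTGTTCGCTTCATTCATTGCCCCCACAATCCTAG
MT-ND4L and MT-ND4 also share one mRNA, with 7 bases in common, and MT-ND4L reached 16.6% to 33.8% of the MT-ND4 level per kilobase. How the counting treated a fragment that covers 2 genes is not given in the sources used here, and its part in these ratios was not tested. Levels of MT-ATP8 and MT-ND4L are thus uncertain. MT-ND6 lies opposite the untranslated end of the MT-ND5 mRNA, and the sources do not say if strand was used in counting, so its reads and those of that end cannot be told apart. MT-ND6 stood at 90.8% to 135% of the MT-ND5 level per kilobase.

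Copies of mitochondrial DNA in nuclear chromosomes can also take reads. Among the 188 rows named as such copies, 150 had 0 counts in all libraries and 3 had a mean of at least 10 counts. MTATP6P1, in the file's coordinates at chr1:569076-569756, had 281 to 2047 counts, which was 3.20% to 5.85% of the MT-ATP6 counts of the same library. MTND2P28, at chr1:565020-566063, had 81 to 442 counts, or 0.462% to 0.701% of MT-ND2. MTRNR2L8 on chromosome 11, a copy of the large rRNA gene, had 5 to 29 counts. Compared base by base in GENCODE 29, MTATP6P1 differs from MT-ATP6 at 10 of 681 bases (98.5% identity), and the longest stretch without a difference is 141 bases. MTND2P28 differs from MT-ND2 at 17 of 1042 bases (98.4% identity), with an identical stretch of up to 266 bases. The 90 bases of MT-ATP6 with the most differences, from base 103 to 192, are printed below, with the 4 that differ in capitals.
MT-ATP6: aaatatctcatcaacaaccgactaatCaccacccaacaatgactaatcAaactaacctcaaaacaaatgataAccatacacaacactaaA
MTATP6P1: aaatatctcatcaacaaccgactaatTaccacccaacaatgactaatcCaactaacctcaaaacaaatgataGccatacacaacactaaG
The ratio of MTATP6P1 to MT-ATP6 counts was 3.33% to 5.85% in UT, 3.20% to 4.24% in UT_LCL, 3.63% to 4.27% in PGCC and 3.77% to 4.20% in PGCC_LCL. Reads that lie in an identical stretch cannot be assigned to either place, so the values of MT-ATP6 and MT-ND2 carry that uncertainty.

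Parental cells and PGCC were then compared gene by gene. The test was edgeR's quasi-likelihood F test across the whole table, with Benjamini-Hochberg adjustment and a threshold of 0.05. Without the drug, the log2 fold changes of PGCC over UT were 0.25 to 0.79 for 12 genes and 0.0052 for MT-CO3, and 0 of 13 passed the test, where 2 had an unadjusted p under 0.05 and DESeq2 called 2. With the drug, 4 of 13 rose in PGCC_LCL: MT-ND1, MT-ND5, MT-ND6 and MT-ATP8. The replicate numbers were taken to pair the libraries. With the number as a block, 7 of 13 genes rose in PGCC against UT and 12 of 13 in PGCC_LCL against UT_LCL. Over all genes, 23.1% were called higher in PGCC against UT without the block and 27.9% with it. In PGCC_LCL against UT_LCL the shares were 25.0% and 29.5%.

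MT-ND1, whose protein sits in the membrane arm of complex I, had the largest fold change in both comparisons. Its level was 798 to 3129 CPM in UT, with a median of 1638, and 1796 to 4705 CPM in PGCC, with a median of 3091. The ranges overlapped, since UT replicates 4 and 5 (2957 and 3129 CPM) were above PGCC replicates 1, 3 and 6. The log2 fold change was 0.79 ± 0.37 (SE, n = 6 per group; adjusted p = 0.0893 by edgeR), and an exact permutation test of 6 against 6 libraries gave p = 0.0714, two-sided. With the replicate block it was 0.90 ± 0.21 (SE; adjusted p = 0.006 by edgeR). An exact permutation test over the 6 pairs gave p = 0.0625 where 0.0313 is the smallest possible, as 5 of 6 pairs were higher. In the drug-treated cells MT-ND1 was 662 to 3136 CPM in UT_LCL and 1956 to 4646 CPM in PGCC_LCL, again with overlap. There the log2 fold change was 0.96 ± 0.36 (SE, adjusted p = 0.0404 by edgeR), with all 6 pairs higher (exact permutation test over pairs, p = 0.0313, n = 6, the smallest possible).

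MT-ND5, another subunit of the membrane arm, followed closely. It was measured at 451 to 1490 CPM in UT (median 1061) and at 863 to 2311 CPM in PGCC (median 1750). Its log2 fold change in PGCC was 0.72 ± 0.31 (SE, adjusted p = 0.0729 by edgeR), and 0.78 ± 0.19 with the block (adjusted p = 0.00582). In PGCC_LCL against UT_LCL it was 0.92 ± 0.30 (SE, adjusted p = 0.0207 by edgeR), with all 6 pairs higher. MT-ND5 therefore passed the test in the drug-treated cells with and without the block.

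MT-ND6, the subunit encoded on the other strand, was 143 to 494 CPM in UT and 249 to 712 CPM in PGCC. The log2 fold change was 0.62 ± 0.32 (SE, adjusted p = 0.123 by edgeR) and with the block 0.67 ± 0.17 (adjusted p = 0.00817). In PGCC_LCL it was 0.88 ± 0.29 above UT_LCL (SE, adjusted p = 0.0225 by edgeR). MT-CYB, cytochrome b, was 541 to 2424 CPM in UT and 1091 to 3020 CPM in PGCC. The log2 fold change of 0.59 ± 0.39 (SE, adjusted p = 0.226 by edgeR) became 0.75 ± 0.23 (adjusted p = 0.0205) with the block. Thus, in PGCC against UT, both genes rose under the block and neither did without it. The exact permutation test over those pairs gave p = 0.0625 for MT-ND6, MT-CYB and MT-ND5.

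The remaining complex I genes had lower fold changes. MT-ND4 had a log2 fold change of 0.42 in PGCC against UT, MT-ND4L of 0.40, MT-ND3 of 0.30 and MT-ND2 of 0.27. The first 3 of them rose with the block (adjusted p = 0.0466, 0.0223 and 0.0443 by edgeR), and MT-ND2 did not (adjusted p = 0.125). For those 3 the exact permutation test over pairs gave p = 0.156, 0.0938 and 0.125. In PGCC_LCL against UT_LCL all 4 rose with the block, with log2 fold changes of 0.85, 0.92, 0.52 and 0.64, and none without it. There the exact permutation test over pairs gave p = 0.0313, the smallest possible, for the first 3 and p = 0.125 for MT-ND2.

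The genes of complexes IV and V came next. In PGCC against UT the log2 fold change was 0.33 for MT-CO1, 0.25 for MT-CO2, 0.32 for MT-ATP6 and 0.40 for MT-ATP8, and none passed with the block (adjusted p = 0.0745, 0.115, 0.0948 and 0.157 by edgeR). MT-CO3 was the gene closest to 0, at 0.0052 ± 0.37 (SE, 95% interval -0.79 to 0.80), with 3 of 6 pairs higher. Its level was 1346 to 6050 CPM in UT and 1843 to 4993 CPM in PGCC, so the range of PGCC lay within that of UT. With the drug, MT-CO1, MT-CO2, MT-ATP6 and MT-ATP8 rose with the block, by log2 fold changes of 0.61, 0.63, 0.70 and 0.93. MT-CO3 did not, at 0.35 ± 0.18 (SE, adjusted p = 0.125 by edgeR). The exact permutation test over these pairs gave p = 0.0313 for MT-CO1 and MT-ATP6 and p = 0.0625 for MT-CO2 and MT-ATP8. MT-ATP8 passed narrowly without the block (an adjusted p by edgeR that rounds to 0.05), on counts of 7 to 54 per library.

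**Figure D3:**
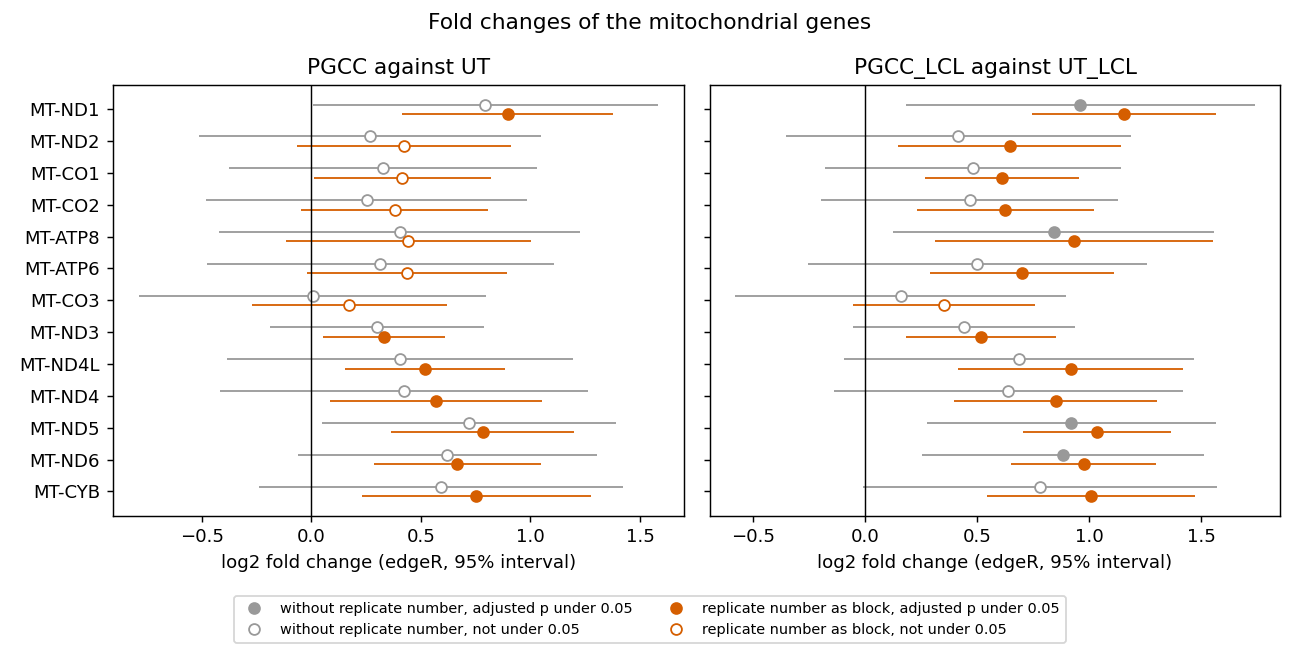
Log2 fold change of each mitochondrial gene with its 95% interval (x axis) in PGCC against UT (left) and PGCC_LCL against UT_LCL (right), from 6 libraries per group. Grey is the fit without the replicate number and orange the fit with it as a block, and filled points have an adjusted p under 0.05. MT-ND1 is farthest to the right and MT-CO3 nearest to 0 in both panels.

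These calls depended on single libraries and on replicates 4 and 5. In PGCC against UT, 1 gene was called without PGCC replicate 1, and 2 without UT replicate 4 or without UT replicate 5. Over all genes, 2994 of 13936, 3332 of 14010 and 3319 of 14029 were called higher in these 3 fits. In PGCC_LCL against UT_LCL, 2 genes remained without PGCC_LCL replicate 2, 4 or 5 or without UT_LCL replicate 1, 2 or 6. There 3222 to 3398 of all genes were called higher, of 13899 to 14049 tested. With replicates 4 and 5 left out of both conditions, 4 of 13 genes rose in PGCC against UT (27.7% of all genes were called higher) and 11 of 13 in PGCC_LCL against UT_LCL (27.9% of all genes). Within pairs, the median difference in log2 CPM over the 13 genes averaged 0.68 in replicates 1, 2, 3 and 6 and 0.17 in replicates 4 and 5 for PGCC minus UT. For PGCC_LCL minus UT_LCL it averaged 1.03 and 0.19. Of 13 genes, 0 were higher in every PGCC library than in every UT library, and 0 in PGCC_LCL against UT_LCL, where 14.3% and 14.7% of all genes were.

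The spread itself set the members apart from most genes in size. The SD of log2 CPM over the 6 UT libraries had a median of 0.86 over the 13 genes and 0.31 over the 14555 genes that passed the filter. In PGCC the medians were 0.60 and 0.21, and in PGCC_LCL 0.43 and 0.20. The members' SD exceeded the 95th percentile of all genes for 6 genes in UT, 7 in UT_LCL, 0 in PGCC and 0 in PGCC_LCL. Mitochondrial mRNA thus varied more between the parental libraries than between those of PGCC_LCL, a difference that was not tested.

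The make-up of mitochondrial mRNA also differed between parental cells and PGCC. Each gene's counts were taken as a percentage of the counts on all 13, a quantity that no scaling of libraries can change. It is given as a description, with no test, and the percentages of the 13 genes are bound together because they sum to the whole. MT-ND1 made up 5.94% to 7.14% in UT, with a median of 6.61%, and 7.59% to 10.2% in PGCC, with a median of 8.97%. MT-ND5 made up 3.23% to 4.32% in UT (median 3.86%) and 4.45% to 5.40% in PGCC (median 4.51%). MT-CO3 made up 10.9% to 13.5% in UT (median 12.4%) and 8.92% to 10.7% in PGCC (median 10.0%). For these genes the ranges of the conditions did not overlap, which by itself makes the direction the same in 6 of 6 pairs. For all other members the ranges of UT and PGCC overlapped.

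The drug-treated cells had the same pattern. MT-ND1 made up 5.70% to 7.59% in UT_LCL and 8.38% to 9.90% in PGCC_LCL. MT-ND5 made up 3.28% to 4.13% and 4.46% to 4.98%, and MT-CO3 10.8% to 13.8% and 9.10% to 10.3%. MT-CYB was higher in 6 of 6 pairs in both comparisons, at 4.11% to 5.44% in UT and 5.12% to 5.91% in PGCC, with overlap. MT-CO1, the largest single part, made up 29.2% to 34.5% in UT and 28.3% to 32.7% in PGCC, and was lower in 5 of 6 pairs. The count ratio of MT-ND1 to MT-CO3 shows the shift in one number per library: 0.497 to 0.593 in UT, 0.412 to 0.617 in UT_LCL, 0.711 to 0.990 in PGCC and 0.848 to 0.982 in PGCC_LCL. No parental library reached the lowest PGCC library. The percentages of both genes already did not overlap within each comparison, in opposite directions. That the ratio separates parental cells from PGCC follows from this choice of genes and is no further result. Replicates 4 and 5 were the lowest of UT, at 0.497 and 0.517 against 0.546 to 0.593 in the others, and stood at 0.934 and 0.990 in PGCC.

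By complex, the 7 complex I genes together made up 36.0% ± 1.21 of mitochondrial counts in UT and 39.4% ± 1.55 in PGCC (SD, n = 6). The 3 complex IV genes made up 54.5% ± 1.61 in UT and 50.2% ± 2.07 in PGCC. The 2 complex V genes were at 4.96% ± 0.289 in UT and 4.83% ± 0.330 in PGCC, within their spread. Along the chromosome, MT-ND1 is the first of the protein genes and MT-ND4L, MT-ND4, MT-ND5, MT-ND6 and MT-CYB are the 5 last ones. Their mean percentages were larger in PGCC_LCL than in UT_LCL. They were also larger in PGCC than in UT, except for MT-ND4L. Its mean was nearly the same, at 0.567% ± 0.0441 in PGCC and 0.564% ± 0.165 in UT (SD, n = 6). For those 5 the ratio of mean percentages was 1.00, 1.07, 1.23, 1.12 and 1.21 in PGCC over UT, and 1.16, 1.11, 1.26, 1.20 and 1.23 in PGCC_LCL over UT_LCL. The genes between, from MT-ND2 to MT-ND3, had ratios of 0.811 to 0.981 without the drug and 0.784 to 0.999 with it, except MT-ATP8, which was at 1.23 with the drug.

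**Figure D4:**
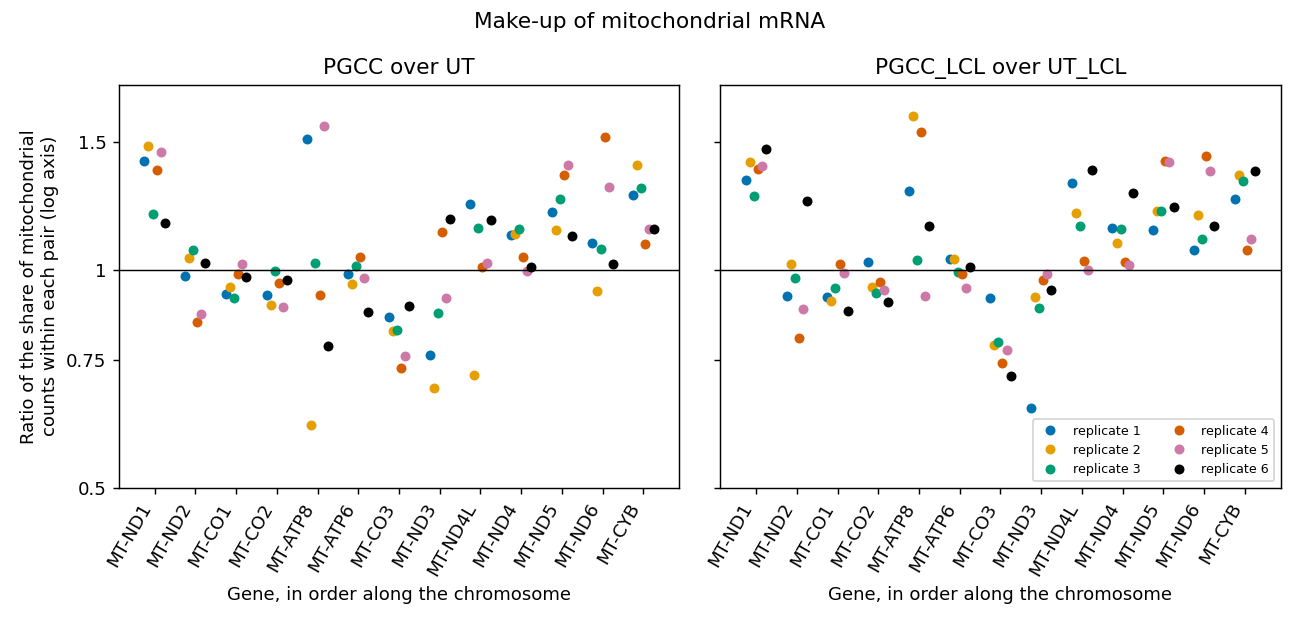
Ratio of each gene's percentage of mitochondrial counts in PGCC over UT (left) and PGCC_LCL over UT_LCL (right) within each replicate (y axis, log scale; coloured points) for the 13 genes in order along the chromosome. MT-ND1, MT-ND5 and MT-CYB are above 1 in all 6 replicates of both panels, and MT-CO3 is below 1 in all.

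Whether LCL521 changed mitochondrial mRNA was tested in each population. In UT_LCL against UT, 0 of 13 genes passed edgeR's test with or without the block, and 0 had an unadjusted p under 0.05 in either. DESeq2 also called 0 of 13. Over all genes 0% were called without the block and 0.866% with it. The log2 fold changes were -0.18 to -0.022 for 12 genes, with an interval of -0.99 to 0.95 for MT-ND1 and of -1.07 to 1.02 for MT-CYB, the widest of the 13. MT-ATP8 was at -0.52 (95% interval -1.47 to 0.42). Leaving out UT replicate 4 turned the median over the 13 genes from -0.069 to 0.13, so no direction can be read from these values.

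The 6 parental pairs did not go one way. The share of mitochondrial counts was 2.21 times higher with the drug in replicate 3 (1.39% in UT and 3.06% in UT_LCL) and 0.430 times as high in replicate 6 (3.31% and 1.42%). In replicates 1, 2, 4 and 5 the ratio lay between 0.853 and 1.22. Most members shared the direction within these pairs. The median difference in log2 CPM was 1.15 in replicate 3, where MT-ATP8 alone stood near 0, and -1.43 in replicate 6. Over all 14555 genes, the deviations of same-numbered UT and UT_LCL libraries correlated at 0.458 to 0.813, and for replicates 3 and 6 at 0.458 and 0.666. The crossed pairs correlated less, at 0.295 for UT replicate 3 with UT_LCL replicate 6 and at 0.333 for UT replicate 6 with UT_LCL replicate 3.

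In PGCC_LCL against PGCC, edgeR called 0 of 13 genes without the block, where 0 had an unadjusted p under 0.05, and DESeq2 called 0. Over all genes 0.00707% were called without the block and 1.65% with it. With the block again 0 of 13 passed, although 11 had an unadjusted p under 0.05. The log2 fold changes with the block were 0.068 to 0.23 for 12 genes, for example 0.20 ± 0.066 for MT-CYB (SE, adjusted p = 0.144 by edgeR) and 0.15 ± 0.048 for MT-ND5 (adjusted p = 0.133). MT-ATP8 stood at -0.068 ± 0.19. The share of mitochondrial counts was higher with the drug in 5 of 6 pairs, by ratios of 0.876 to 1.49 with a median of 1.10. The make-up differed by less than its spread, for example in MT-ND1, which made up 9.03% ± 0.618 in PGCC_LCL and 8.92% ± 0.859 in PGCC (SD, n = 6).

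Whether the response to LCL521 differed between the populations was tested as an interaction in all 24 libraries, and 0 of 13 genes passed edgeR's test, with 0 at an unadjusted p under 0.05. DESeq2 called 0 as well, and 0% of all genes passed. The estimates were 0.12 to 0.42 on the log2 scale, with an interval of -0.98 to 1.28 for MT-ND1.

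**Figure D5:**
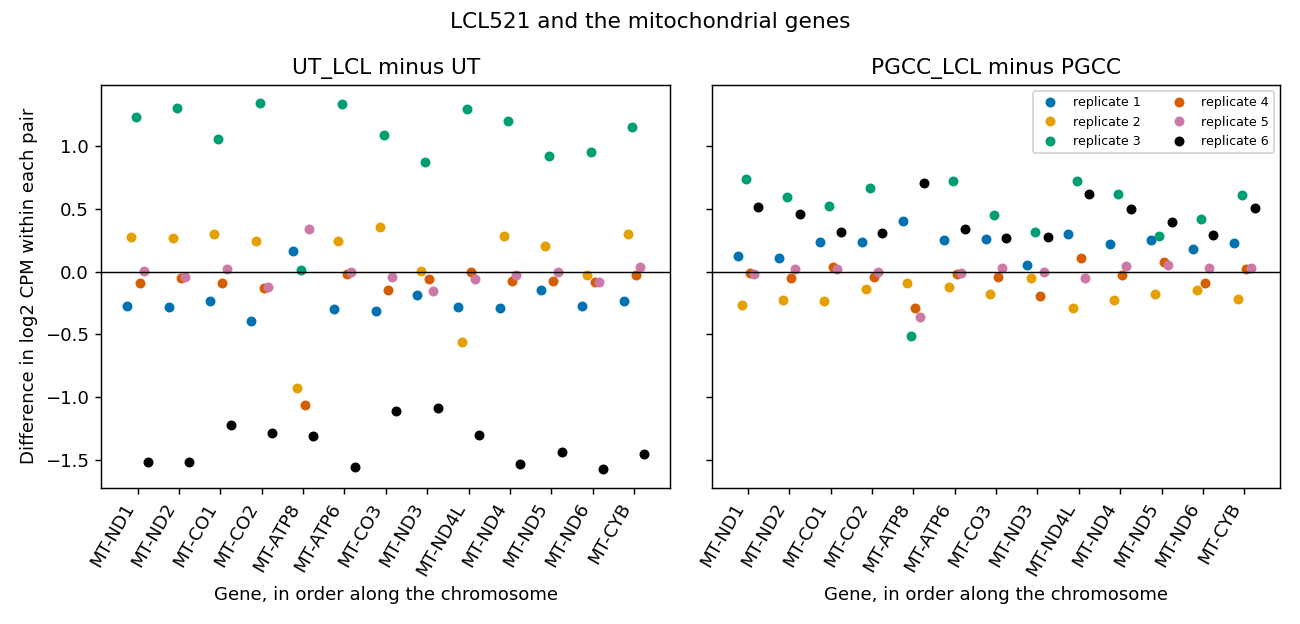
Difference in log2 CPM between libraries with and without LCL521 within each replicate (y axis) for the 13 genes (x axis) in parental cells (left) and PGCC (right). In parental cells replicates 3 and 6 lie far from 0 on opposite sides, at medians of 1.15 and -1.43, and in PGCC the points lie closer to 0.

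Nuclear genes were counted in 8 lists, for mitochondrial DNA and RNA, biogenesis, nucleotide supply, mitochondrial mass and partner subunits. Each list had more members called lower than higher in PGCC. They were counted in PGCC against UT with the same edgeR test without the block, where 23.1% of all genes were called higher and 24.3% lower. Over all genes tested the log2 fold change had a median of -0.028. With library totals in place of TMM, 3820 genes were called higher and 2521 lower, against 3186 and 3355 with TMM, and the lists were not counted again under that scaling. The counts are a description, and nothing was tested over a list.

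Of 13 genes for the upkeep of mitochondrial DNA, 7 fell and 3 rose, with a median log2 fold change of -0.40. LONP1, a matrix protease that degrades proteins including the DNA-packaging factor TFAM, fell by 1.43 on the log2 scale (adjusted p = 1.43e-05). TOP1MT, the mitochondrial topoisomerase, fell by 0.95 (adjusted p = 4.12e-05). MGME1, an exonuclease that trims mitochondrial DNA ends during replication, rose by 1.46 (adjusted p = 1.18e-06). DNA2, a nuclease and helicase of nucleus and mitochondria, rose by 0.85 (adjusted p = 0.00281).

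Transcription factors followed with 3 of 7 lower and 0 higher, at a median of -0.23. TFB2M, which opens the mitochondrial promoters, fell by 0.64 (adjusted p = 0.00294), and POLRMT, the mitochondrial RNA polymerase, fell by 0.40 (adjusted p = 0.00139). Among 15 genes for RNA processing and modification 14 were tested, 7 fell and 0 rose. PUS1, a pseudouridine synthase, fell by 0.53 and GTPBP3, which modifies tRNAs, by 0.44. Of 14 genes for RNA stability and decay 8 fell and 0 rose, among them FASTKD2 (-0.51) and the helicase SUPV3L1 (-0.47), which unwinds RNA for decay.

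Regulators of mitochondrial biogenesis gave 4 lower and 0 higher of 7. PPARGC1B, a coactivator, had a log2 fold change of -1.25 ± 0.31 (SE) and ESRRA, a nuclear receptor that works with it, of -0.70 ± 0.12. In the supply of nucleotides 3 of 5 genes fell and 1 rose: SLC25A36, a carrier of pyrimidine nucleotides (-0.65), and TK2, the mitochondrial thymidine kinase (-0.62), were among the lower, and DGUOK, the deoxyguanosine kinase, was higher (0.27).

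Genes that follow mitochondrial mass gave 3 lower and 0 higher of 11, with a median of -0.17. That part called lower is near the 24.3% of all genes. HSPA9, a matrix chaperone, fell by 0.81 and TOMM20, an import receptor of the outer membrane, by 0.74. The nuclear partners of the 13 subunits, in complexes I, III, IV and V, gave 8 lower and 0 higher of 19, with a median of -0.17. CYC1, cytochrome c1 of complex III, fell by 0.68 (adjusted p = 8.59e-06). For the 13 mitochondrial genes the median in the same fit was 0.40, with none passing.

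The drug-treated cells gave like counts in these lists, with 7 lower and 3 higher of 13 for upkeep of the DNA, 4 and 0 of 7 for transcription, and 6 and 1 of 19 for the nuclear partners, where 25.0% of all genes were called higher and 23.9% lower. In UT_LCL against UT and in PGCC_LCL against PGCC, 0 genes of these 8 lists passed edgeR's test without the block, where 0% and 0.00707% of all genes did.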

How the data were processed

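PPC1 RNA-seq was made in 24 libraries, 6 in each of 4 conditions. The authors deposited whole-number counts per gene, not normalized. Paired-end reads were aligned with STAR and counted with HTSeq per the study's methods, on hg19 per the submitters' processing notes. The annotation release and the strand setting are not given in the sources used here. RNA was enriched for poly(A) per the supplementary scheme. No per-sample column was left out.

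Genes were filtered with edgeR's filterByExpr (minimum count 10, minimum total 15), scaled by TMM and compared by the quasi-likelihood F test of edgeR, fitted to the 12 libraries of each comparison (all 24 for the interaction), with p-values adjusted over all genes tested (threshold 0.05). The SE is the log2 fold change divided by the square root of F, and intervals are at the 95% level. Single genes were also tested on log2 CPM with two-sided exact permutation tests over 924 divisions (smallest p 0.00216) or, added after seeing the data, 64 sign assignments of the pairs (smallest p 0.0313). Other tools were DESeq2 1.42.0 and limma 3.58.1, beside edgeR 4.0.16 in R 4.3.3. The fits of edgeR, DESeq2 and limma without the block were tried on counts simulated with no replicate effect, for PGCC against UT and UT_LCL against UT. The block, the interaction and the permutation tests were not tried on simulated data.

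Replicate numbers come from the labels and were taken to stand for independent experiments. The numbers were taken as pairing the libraries. Deviations of same-numbered libraries from their condition means correlated at 0.171 or more in every pair of every comparison. For differently numbered libraries the median was -0.337 to -0.0799. Some of those correlated too, at 0.604 for UT replicate 4 with UT_LCL replicate 5, so the correlation does not settle the pairing. Named genes were the 13 members and, in each list, up to 2 called rises and 2 called falls of largest size between UT and PGCC, with nuclear copies that had a mean of at least 10 counts. The members, lists and alternatives were chosen with earlier results of these data known. P-values measure the spread between these libraries of one cell line. One marker list and 1 gene that the naming rule selects are not reported here.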

Additional observations from a re-analysis of the deposited data

Results flagged for a closer look

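In 108 groups of 6 libraries (the level and the percentage of mitochondrial counts of each member, and the share of counts, in each condition), 4 had a library whose gap to its nearest neighbour was large against the range of the group, by a ratio above Dixon's 95% critical value for 6 samples. Chance flags about 1 in 20 independent groups. These groups share libraries and the percentages are bound together, so 4 of 108 cannot be judged against that rate. All 4 were percentages. The ratio was 0.669 for the MT-ND4L percentage in UT, where replicate 2 had 0.882% and the others 0.434% to 0.583%. For the MT-ND3 percentage in UT_LCL it was 0.69, with replicate 1 at 5.66% and the others at 2.87% to 3.73%. For the MT-ATP6 percentage in PGCC_LCL it was 0.845, with replicate 6 at 4.30% and the others at 5.01% to 5.14%. For the MT-ND6 percentage in PGCC_LCL it was 0.634, with replicate 2 at 1.64% and the others at 1.26% to 1.40%.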

How the results depend on the processing

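In brackets after each count of called members are the genes called higher of all genes tested in that fit. The count of mitochondrial genes called in PGCC against UT, 0 of 13 (3186 of 13812), was 2 with DESeq2 (3433 of 13812). It was 1 with library totals alone (3820 of 13812) or with no filter beyond 1 count (4406 of 29759). With the replicate block it was 7 (3851 of 13812), also with scaling by genes outside the mitochondrial chromosome (3939 of 13812). It was 9 with the block and library totals (4591 of 13812) or with DESeq2 and the block (3945 of 13812). It was 4 with replicates 4 and 5 left out (3829 of 13809) and 12 when the block was added to that (4513 of 13809). Leaving out 1 library at a time gave 0 to 2, where 2971 to 3332 genes were called higher, of 13875 to 14032 tested. In PGCC_LCL against UT_LCL, 4 of 13 (3454 of 13818) became 12 with the replicate block (4070 of 13818). It was also 12 with the block and scaling by genes outside the mitochondrial chromosome (4038 of 13818). The same number came with the block and library totals (4450 of 13818) or DESeq2 (3914 of 13818). The count became 11 without replicates 4 and 5 (3872 of 13891) and 13 when the block was added (4260 of 13891). With 1 library left out it was 2 to 5, where 3221 to 3605 genes were called higher, of 13899 to 14049 tested. In PGCC_LCL against PGCC, 1 gene was called with replicates 4 and 5 left out and the block (72 of 14179). The alternatives with the block and totals and with DESeq2 and the block were chosen after seeing the data.

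The log2 fold change of MT-CO3 in PGCC against UT turned to -0.012 with no filter beyond 1 count and lay between -0.17 and 0.23 with 1 library left out. In PGCC_LCL against UT_LCL it lay between -0.034 and 0.38. That of MT-ATP8 in PGCC_LCL against PGCC turned to 0.094 without replicates 4 and 5 and to 0.11 with the block as well, and lay between -0.24 and 0.042 with 1 library left out. The cause of these changes was not tested. The block on its own changed no call of a member in UT_LCL against UT, PGCC_LCL against PGCC or the interaction. Results for mitochondrial rRNA and tRNA, and their alternatives, could not be given because the table held no such rows. Counts limit MT-ATP8 alone.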
